A study of Mus musculus with 48 samples.

Results

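The comparison is of dorsal skin RNA from mice given the DGAT1 inhibitor Cpd2 and from mice given vehicle in Study 1, and it was chosen by the study and treatment in the sample titles, which gave 16 of the 48 arrays of the series, 8 Cpd2 and 8 vehicle mice with 1 array each. All were male C57BL/6 mice made obese on a high-fat diet, 8 weeks old per the labels, and dosed by mouth for 14 days with Cpd2, at 30 mg/kg where the methods name no other dose, or with methylcellulose vehicle. Both groups therefore share the diet and the obesity, and what Cpd2 does in lean skin was not measured. The study sought RNA markers of the sebaceous gland atrophy seen with some DGAT1 inhibitors. By histology it scored the atrophy as moderate to marked with Cpd2. Skin was not remarkable with Cpd1, another DGAT1 inhibitor, shown at a lower dose. The 8 Cpd1 mice of Study 1 entered the fits so that the 3 groups share an estimate of the spread, and the 4 Cpd2 and 4 vehicle mice of Study 2, which share no animal with Study 1, were used to look at the same compound in other mice. Within Study 1 the changes were divided into those that move with the skeletal muscle content of single mice and those that do not.

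DGAT1 is an enzyme that joins a fatty acid to diacylglycerol, the last step of triacylglycerol synthesis, and DGAT2 is an unrelated enzyme that catalyses the same step. In skin, the sebaceous glands make and store wax esters, triacylglycerols and other neutral lipids and release them as sebum when their cells break down, while keratinocytes make the cornified layer from cross-linked proteins and lipids. Mouse back skin lies on a sheet of striated muscle, the panniculus carnosus, so that a skin biopsy can hold more or less skeletal muscle. In such bulk samples, fewer cells of a type and less RNA per cell cannot be told apart.

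The muscle content of a mouse was taken as its muscle score, the mean log2 intensity of Ckm, the creatine kinase of muscle, Acta1, skeletal alpha actin, and Myh4, the myosin heavy chain of fast fibres. The proximal promoters of these 3 genes are shown because the separation of the changes turns on them, beside those of Ccl1, which had the largest increase of all tested probesets with a gene name, and Scd3, the gene that fell most among those of fatty acid synthesis. Each runs 5′ to 3′ on the strand of its gene, from 250 bases before the start to 50 bases after it, in RefSeq's GRCm38.p6. Capitals mark CAGCTG, a form of the E-box that myogenic factors bind, and TATAAA, the core of the TATA box, each searched on both strands. The promoters were of Ckm (chr7:19410844-19411143, plus strand), Acta1 (chr8:123894726-123895025, minus strand), Myh4 (chr11:67237562-67237861, plus strand), Ccl1 (chr11:82179763-82180062, minus strand) and Scd3 (chr19:44203038-44203337, plus strand).
Ckm: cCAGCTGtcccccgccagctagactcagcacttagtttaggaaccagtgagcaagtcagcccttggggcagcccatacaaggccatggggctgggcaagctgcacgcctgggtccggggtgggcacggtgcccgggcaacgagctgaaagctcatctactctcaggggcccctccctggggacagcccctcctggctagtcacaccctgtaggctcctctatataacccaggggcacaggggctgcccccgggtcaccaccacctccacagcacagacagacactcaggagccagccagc
Acta1: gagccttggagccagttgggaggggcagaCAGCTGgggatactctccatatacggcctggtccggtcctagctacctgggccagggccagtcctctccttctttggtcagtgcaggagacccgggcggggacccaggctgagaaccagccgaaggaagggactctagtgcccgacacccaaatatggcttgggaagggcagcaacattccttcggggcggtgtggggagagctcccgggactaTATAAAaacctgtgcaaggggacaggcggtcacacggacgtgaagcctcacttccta
Myh4: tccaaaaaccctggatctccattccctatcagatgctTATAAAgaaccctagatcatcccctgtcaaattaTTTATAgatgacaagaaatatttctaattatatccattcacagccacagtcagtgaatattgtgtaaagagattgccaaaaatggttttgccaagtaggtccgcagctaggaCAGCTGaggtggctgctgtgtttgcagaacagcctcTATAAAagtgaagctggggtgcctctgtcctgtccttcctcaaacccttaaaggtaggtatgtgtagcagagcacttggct
Ccl1: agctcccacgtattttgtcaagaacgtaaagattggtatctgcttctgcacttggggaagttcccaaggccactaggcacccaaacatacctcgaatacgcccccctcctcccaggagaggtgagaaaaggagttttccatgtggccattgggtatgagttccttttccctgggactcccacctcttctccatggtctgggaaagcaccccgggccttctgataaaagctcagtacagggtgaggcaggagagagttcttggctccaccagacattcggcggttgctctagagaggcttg
Scd3: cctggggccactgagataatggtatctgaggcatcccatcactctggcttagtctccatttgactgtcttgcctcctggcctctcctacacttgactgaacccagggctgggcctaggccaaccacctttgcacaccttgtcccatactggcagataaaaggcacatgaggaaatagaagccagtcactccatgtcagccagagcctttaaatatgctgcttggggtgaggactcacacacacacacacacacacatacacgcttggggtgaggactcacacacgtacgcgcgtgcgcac
CAGCTG occurred 1 time in each of the 3 muscle promoters and in neither of the others. TATAAA occurred 1 time in Acta1 and 3 times in Myh4, and in none of the other 3. CAGCTG is its own reverse complement and cannot overlap TATAAA, whose reverse TTTATA can overlap it, and a match is a description of the letters in this window.

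Defining markers of skin were high in both groups. Krt10, a keratin of differentiated epidermis, averaged a log2 intensity of 12.85 in Cpd2 mice and 12.46 in vehicle mice, and Col1a1, a collagen of the dermis, 13.27 in Cpd2 mice and 13.29 in vehicle mice. Array medians of the 16 mice lay between 27.0 and 28.7 in linear intensity. Vehicle mouse 4 stood apart, with a mean log2 intensity of 11.43 for 19 hair shaft and root sheath keratins, against 3.64 to 8.27 in the other 7 vehicle mice. It was also the lowest vehicle mouse in the lists of muscle, sebaceous gland, adipocyte and endothelial genes. The same held for T and NK cell, dendritic cell, macrophage, cytokine and interferon genes. It was the highest for melanocyte genes (8.79, others up to 7.19), cell division (8.08, up to 7.82) and hair follicle regulators (8.68, up to 8.54). It was the highest as well for activated keratinocytes (7.73, up to 7.21) and, by little, the cornified envelope (9.99, up to 9.98). Many of the results that rest on it are given with and without it.

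The muscle score was 12.46, 12.14, 11.99, 11.39, 8.39, 7.73, 5.48 and 5.15 in Cpd2 mice 8, 5, 1, 6, 2, 4, 7 and 3. In vehicle mice it lay between 12.47 and 12.84 in 7 animals and at 10.84 in mouse 4. Cpd2 mice 2, 3, 4 and 7 were thus below every vehicle mouse, and the other 4 Cpd2 mice lay above vehicle mouse 4 and below the other 7 vehicle mice. The mean was 9.34 ± 3.04 in Cpd2 mice and 12.41 ± 0.64 in vehicle mice (SD, n = 8 each), a difference of −3.07. Cpd1 mice lay between 11.78 and 12.50. With Cpd2 in Study 2 the score was 12.02 ± 0.30, and with vehicle there 12.04 ± 0.08 (SD, n = 4 each).

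**Figure D1:**
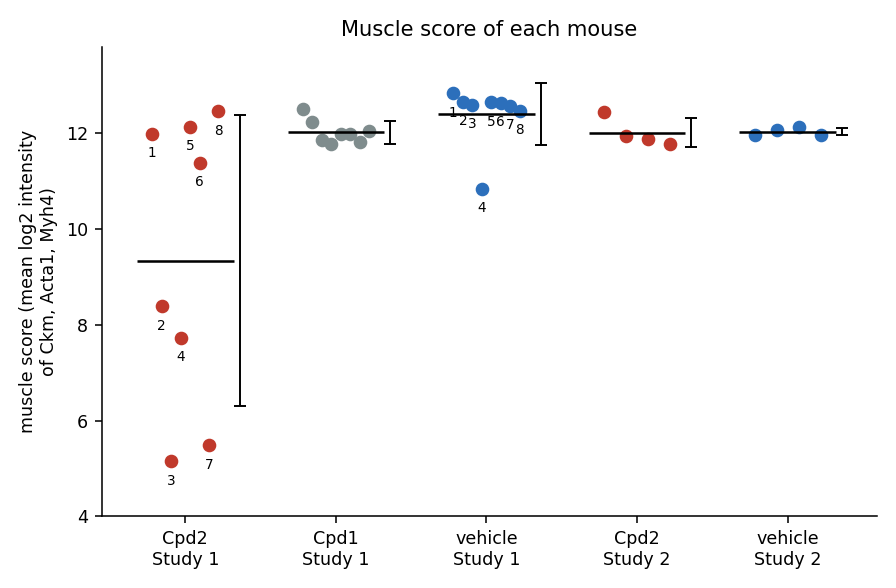
Muscle score of each mouse (vertical axis, mean log2 intensity of Ckm, Acta1 and Myh4) by treatment and study (horizontal axis), with 1 point per mouse, a line at the group mean, a bar for the SD and the mouse numbers of the Cpd2 and vehicle groups of Study 1. Cpd2 mice 2, 3, 4 and 7 of Study 1 lie between 5.15 and 8.39, below all vehicle mice, and the Cpd2 mice of Study 2 lie at the level of their vehicle mice.

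Over all genes, 3769 of 28789 tested probesets (13.1%) passed a Benjamini-Hochberg adjusted p of 0.05 for Cpd2 minus vehicle in limma, 2041 higher (7.09%) and 1728 lower (6.00%). The median log2 change of all tested probesets was 0.04. With the muscle score in the fit, 989 passed (3.44%), 657 higher (2.28%) and 332 lower (1.15%), of which 930 had also passed without the score. The change in that fit, called the change at equal score, is a linear adjustment and no comparison of matched mice. No vehicle mouse scored under 10.84, so for the 4 Cpd2 mice below every vehicle mouse it extends a fitted line beyond the vehicle mice. The excess of increases depended on single mice, with 831 higher and 768 lower without vehicle mouse 4, and 94 higher and 214 lower without that mouse and the 4 Cpd2 mice low in muscle. Without the score, leaving out vehicle mouse 4 gave 5103 calls over all tested probesets, 2550 higher and 2553 lower. The list counts given below without that mouse are to be read beside this general gain in calls. The slope on the score, which uses only differences between mice of a group, passed for 777 probesets (2.70%), 661 positive (2.30%) and 116 negative (0.403%). Of the sum of squares of the score within groups, 95.1% came from the Cpd2 mice, so the slopes are mostly those of the 8 Cpd2 mice. The p-values measure the spread between these mice, and the number of arrays limits the precision.

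Of the 3769 called probesets, 500 followed the muscle score, with a slope that passed the test. Of these, 470 were lower and 30 higher with Cpd2, and 450 did not pass once the score was in the fit. At the other end, 880 probesets passed with the score in the fit and had no called slope, 616 higher and 264 lower, and in 746 of them the slope had an unadjusted p over 0.05. These are said not to follow the score, but a slope that misses the threshold does not show that a probeset is free of muscle. The remaining 2389, or 63.4% of the called probesets, had neither a called slope nor a called change at equal score. The standard error of a change was larger with the score than without it by a median factor of 1.24, so a probeset can fall in this remainder through lost precision as well as through a smaller change. The median share of the change that went with the score was 70.3% in the 450, 34.3% in the 50 that followed the score and still passed with it, 24.6% in the remainder and 4.58% in the 880. Slopes of at least 0.5 in size occurred in 123 of the 500 and in 0 of the 880. The classes are defined by the slope and by the change at equal score. These shares and slope sizes therefore follow largely from the sorting and are no separate finding about the classes.

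**Figure D2:**
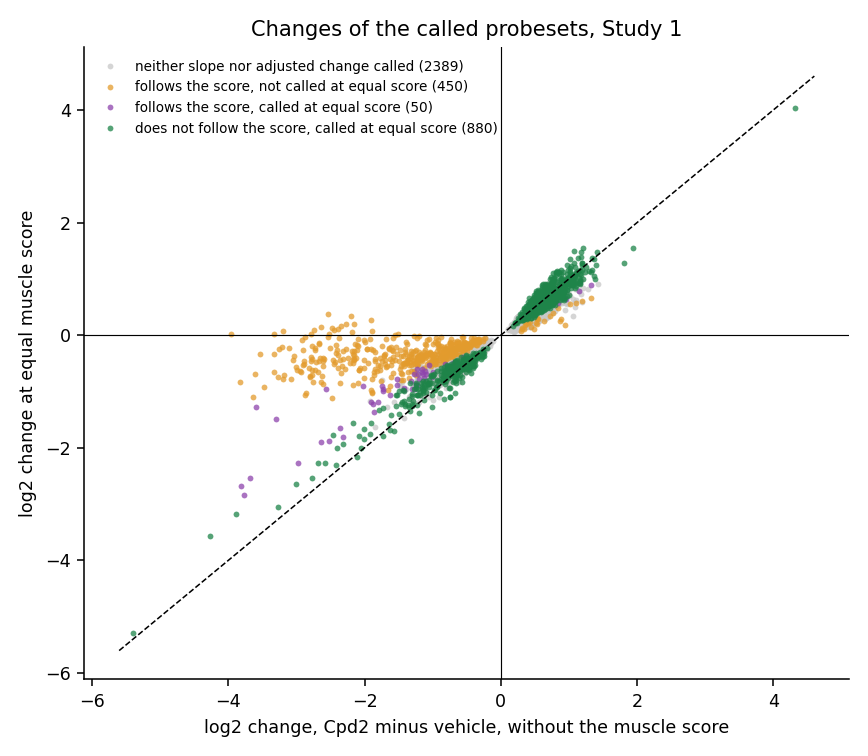
Log2 change of Cpd2 minus vehicle in Study 1 without the muscle score (horizontal axis) and at equal muscle score (vertical axis), with 1 point for each of the 3769 called probesets in 4 colours for the classes. The dashed line marks equal changes. The 450 probesets that follow the score and do not pass at equal score lie near the zero line, and the 880 that do not follow it lie along the dashed line, with Ccl1 at the upper right and Serpinb6d at the lower left. The classes are defined by the slopes and these changes, so their places follow largely from the sorting.

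Genes of skeletal muscle fell together and followed the score. Of 29 tested genes of the contractile apparatus, 22 were lower with Cpd2, none was higher and 7 did not pass, with a median log2 change of −2.27. All 14 genes of muscle energy supply, 13 of 16 of calcium handling and excitation, and 12 of 17 of muscle regulators and fibre structure were lower as well, and none of these lists had a gene that rose. At equal score limma called 1 gene of the 4 lists, Xirp2, and the medians were −0.07, −0.24, −0.30 and −0.35. Called slopes were positive for 22, 14, 13 and 12 genes of the lists in the same order, which include the 3 genes of the score, and for 20 of 27 contractile and 13 of 13 energy genes without them. Without vehicle mouse 4, 13 genes of the 4 lists were lower at equal score and 1 was higher.

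Actn3, the alpha actinin of fast fibres, had log2 intensities from 4.39 over a median of 7.90 to 11.44 in Cpd2 mice, against 9.55, 11.86 and 12.40 in vehicle mice. The 4 Cpd2 mice low in muscle held the values from 4.39 to 6.77 and the other 4 those from 9.02 to 11.44, so the groups overlapped. The change was −3.61 (SE 0.79, adjusted p = 0.00292, limma), and at equal score −0.70 (SE 0.23, adjusted p = 0.101). Its slope of 0.95 (SE 0.04) means that Actn3 moved by nearly as much as the score itself. Myh4, part of the score, changed by −3.95 (SE 1.06, adjusted p = 0.013), Ckm by −3.11 (SE 0.78, adjusted p = 0.00803) and Acta1 by −2.15 (SE 0.63, adjusted p = 0.0231), and their slopes of 1.29, 0.94 and 0.77 are given by the construction of the score. A second, dimmer probeset of Myh4, not in the score, changed by −1.68 with a called slope of 0.37. The call of Acta1 was lost without Cpd2 mouse 4 or 7 (−1.81 to −1.93).

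Of the 8 named genes that follow the score and fell most, 6 were genes of muscle and the other 2 were Cyp2b23 and Scd3. Mstn, which encodes myostatin, a secreted inhibitor of muscle growth, changed by −3.82 (SE 0.85), Actc1, cardiac alpha actin, by −3.63 (SE 0.76), and Mybpc2, a myosin binding protein of fast fibres, by −3.53 (SE 0.86), and had −0.83, −1.11 and −0.33 at equal score (adjusted p 0.316, 0.2 and 0.353). Xirp2, an actin binding protein of the muscle costamere, kept a call at equal score, at −1.28 (SE 0.33, adjusted p = 0.0281), which was lost without Cpd2 mouse 1 or 5 or vehicle mouse 2 or 5 (−1.11 to −1.23). Ampd1, the adenylate deaminase of muscle, Pgam2, a phosphoglycerate mutase of glycolysis in muscle, Casq1, a calcium store protein of the sarcoplasmic reticulum, Cacna1s, the voltage sensor of the same system, and Myf6, a myogenic transcription factor, changed by −3.48, −2.91, −3.01, −2.99 and −2.67 and by −0.92 to −0.09 at equal score. Without the 4 Cpd2 mice low in muscle, limma called 1 gene of the 4 muscle lists, Xirp2 (−1.54, SE 0.39, adjusted p = 0.0286), and the list medians were −0.40, −0.45, −0.53 and −0.47. Without vehicle mouse 4 as well, 13, 10, 10 and 8 genes of the lists were lower and 1 contractile gene was higher, so the 4 remaining Cpd2 mice were lower in muscle than the remaining 7 vehicle mice.

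**Figure D3:**
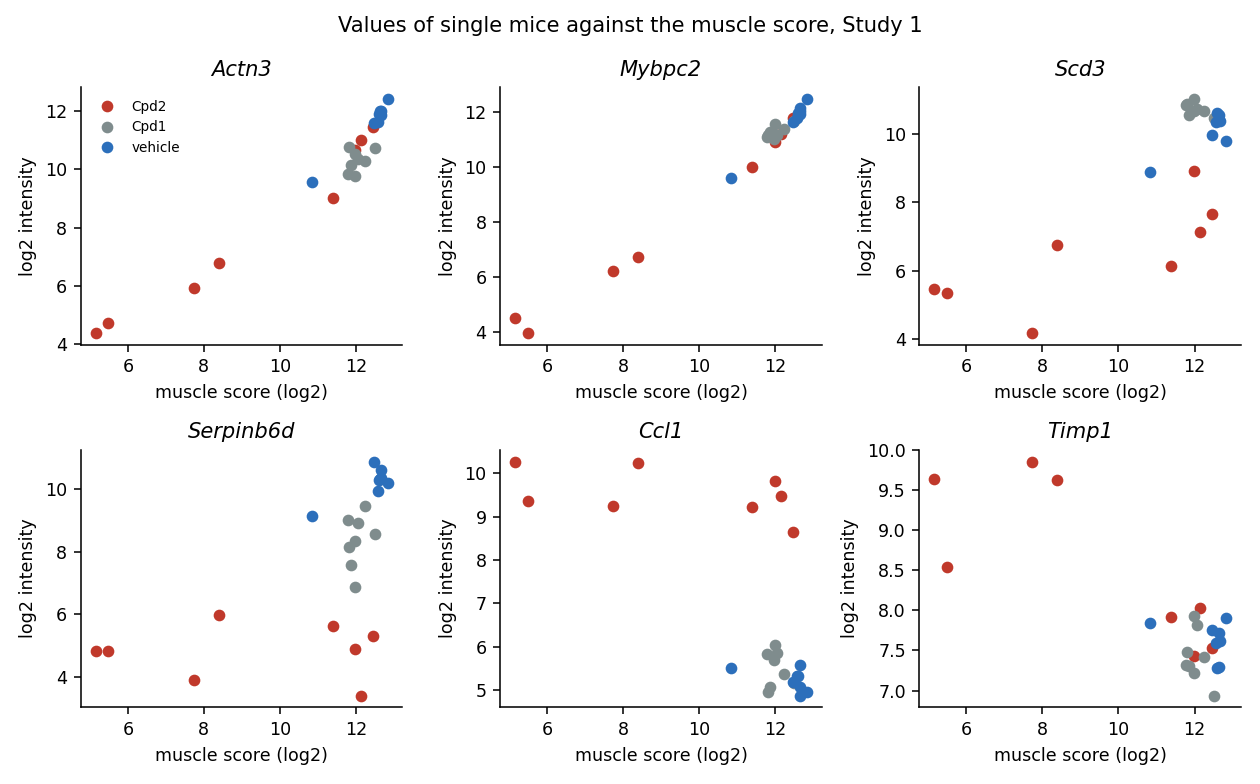
Log2 intensity of 6 genes (vertical axes) against the muscle score (horizontal axes) in the 24 mice of Study 1, with 1 point per mouse for Cpd2, Cpd1 and vehicle. Actn3 and Mybpc2 rise with the score, with several Cpd1 mice below the others in Actn3. Scd3 is below all vehicle mice in every Cpd2 mouse but mouse 1, and lowest in Cpd2 mouse 4. Serpinb6d and Ccl1 separate all Cpd2 mice from all vehicle mice, though no vehicle mouse has a score as low as the 4 Cpd2 mice low in muscle. Timp1 is high only in those 4 Cpd2 mice.

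The promoters of genes that follow the score held CAGCTG more often than promoters at large. It was found in at least 1 promoter of 32 of the 69 genes with a slope of 0.5 or more and a promoter in the table (46.4%), and in 82 of 300 genes of the whole class (27.3%). Both counts include Ckm, Acta1 and Myh4, which hold CAGCTG and whose slopes are given by the construction of the score. Among genes that do not follow the score it was found in 83 of the 355 that rose (23.4%) and in 31 of the 160 that fell (19.4%), against 2297 of 12231 tested genes (18.8%) and 4944 of the 27025 genes of the table (18.3%). TATAAA was found in 31.9% of the genes with the steep slopes, in 16.6% of the risen and 7.5% of the fallen genes that do not follow the score, in 10.9% of tested genes and in 15.7% of all. These shares are descriptions without a test.

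Some genes rose where the muscle score fell. Timp1, an inhibitor of matrix metalloproteinases, had log2 intensities from 7.43 over a median of 8.28 to 9.85 in Cpd2 mice, against 7.28, 7.67 and 7.90 in vehicle mice. Cpd2 mice 2, 3, 4 and 7 had 9.63, 9.64, 9.85 and 8.54, above all vehicle mice, while the other 4 reached at most 8.03. The change was 0.94 (SE 0.28, adjusted p = 0.0266), and at equal score 0.18 (SE 0.25, adjusted p = 0.819), with a slope of −0.25 (SE 0.05). The call without the score was lost without Cpd2 mouse 2, 3 or 4 or vehicle mouse 3 or 6 (0.76 to 0.90). Pglyrp2, a peptidoglycan amidase of innate defence, Mcemp1, a membrane protein of myeloid cells, and Il4i1, an amino acid oxidase of antigen presenting cells, rose by 0.88 (SE 0.22), 1.10 (SE 0.20) and 1.02 (SE 0.20), with slopes of −0.19, −0.17 and −0.15 and 0.29, 0.58 and 0.55 at equal score, without a call (adjusted p 0.534, 0.0834 and 0.139). Cyp17a1, a steroid hydroxylase and lyase, rose by 0.87 (SE 0.26), a call lost without Cpd2 mouse 2, 3 or 7 or vehicle mouse 2 or 5 (0.71 to 0.83).

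Ch25h, which makes 25-hydroxycholesterol, followed the score and was also higher at equal score. It had log2 intensities of 5.69, 6.17 and 6.98 at the lowest, the median and the highest Cpd2 mouse, against 4.42, 4.94 and 5.26 in vehicle mice, without overlap. The 4 Cpd2 mice low in muscle had 6.43 to 6.98 and the others 5.69 to 5.91. The change was 1.33 (SE 0.18, adjusted p = 1.56e-05) without the score and 0.88 (SE 0.17, adjusted p = 0.00353) with it. Tmem125, a membrane protein, and Tprg behaved likewise, at 1.15 (SE 0.13) and 0.95 (SE 0.13) without the score and 0.79 and 0.65 with it. The slope of Ch25h turned to 0.014 without the 4 Cpd2 mice low in muscle and 0.0042 without vehicle mouse 4 as well, and to 0.054 from Cpd1 and vehicle mice and 0.26 from these without vehicle mouse 4. In that last setting the slopes of Tmem125, Tprg and Pglyrp2 were 0.052, 0.069 and 0.63. The slope of Ch25h lost its call without Cpd2 mouse 3 or 8 (−0.14 in both cases) and that of Il4i1 without Cpd2 mouse 1, 5, 6 or 8 (−0.15 to −0.14). The slopes of Cyp17a1 without Cpd2 mouse 6, 7 or 8 (−0.19 to −0.18) and of Tprg without any Cpd2 mouse or vehicle mouse 3 or 5 (−0.12 to −0.09) lost theirs too.

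A small set of lipid genes was lower with Cpd2 at equal score and also had a called positive slope. The slopes turned to −0.48 for Scd3, −0.13 for Aox4 and −0.19 for Cyp2b23 when taken from Cpd1 and vehicle mice without vehicle mouse 4, so their direction rests on the Cpd2 mice and vehicle mouse 4. Scd3, a stearoyl-CoA desaturase that introduces double bonds into fatty acids, had log2 intensities of 4.18, 6.45 and 8.91 at the lowest, median and highest Cpd2 mouse, against 8.88, 10.38 and 10.61 in vehicle mice. The groups met only at Cpd2 mouse 1 and the lowest vehicle mouse, and Cpd2 mouse 6, not low in muscle, had 6.15, below the 6.75 of Cpd2 mouse 2, which was. The change was −3.68 (SE 0.42, adjusted p = 2.11e-06), a 12.8-fold decrease, and at equal score −2.53 (SE 0.37, adjusted p = 0.000183), with a slope of 0.37 (SE 0.07). Both tested probesets of Scd3 gave the same calls.

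Aox4, an aldehyde oxidase that acts on retinaldehyde, and Pnpla5, a triacylglycerol lipase of the patatin family, showed the same pattern with all Cpd2 mice below all vehicle mice. Aox4 had 3.06, 4.76 and 5.89 in Cpd2 mice, against 6.87, 7.66 and 7.99 in vehicle mice (lowest, median and highest log2 intensity). It changed by −2.97 (SE 0.28) without the score and −2.26 (SE 0.27) with it, and its slope lost its call without Cpd2 mouse 3 (0.23). Pnpla5 changed by −2.51 (SE 0.24) and −1.89 (SE 0.22). Cyp2b23, a cytochrome P450, had 3.64, 5.38 and 7.48 in Cpd2 mice, against 7.89, 9.31 and 9.50 in vehicle mice, and changed by −3.77 (SE 0.35) without the score and −2.84 (SE 0.32) with it. Without the 4 Cpd2 mice low in muscle the changes of Scd3, Aox4, Pnpla5 and Cyp2b23 were −2.66, −2.30, −1.95 and −2.99, with adjusted p-values from 2.98e-06 to 8.37e-05.

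Among genes that do not follow the score, the largest decreases were those of protease inhibitors. Serpinb6d, a serpin of the ov-serpin family, had log2 intensities of 3.40, 4.85 and 5.97 at the lowest, median and highest Cpd2 mouse, against 9.15, 10.32 and 10.89 in vehicle mice. No 2 mice of the groups came near each other, and the 4 Cpd2 mice low in muscle (3.89 to 5.97) lay among the other 4 (3.40 to 5.64). The change was −5.39 (SE 0.34, adjusted p = 1.49e-10), a 42.0-fold decrease, −5.30 (SE 0.43) at equal score and −5.42 (SE 0.41) without those 4 mice. Serpinb6d was lower with Cpd1 too, by −1.86 against vehicle (adjusted p = 0.0128, limma). In that comparison 94 of all tested probesets passed (0.327%). The Cpd2 and vehicle mice did not overlap in 549 probesets (1.91% of those tested), with all Cpd2 mice below all vehicle mice in 120 (0.417%) and above them in 429 (1.49%).

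Serpina3b and Serpina3j, serpins of the antichymotrypsin cluster, changed by −4.26 (SE 0.39) and −3.88 (SE 0.41), and Serpinb1c, another serpin, by −2.11 (SE 0.28). At equal score they were −3.56, −3.17 and −2.16, and all passed the test. The slopes of Serpina3b and Serpina3j were both 0.23 (SE 0.08 and 0.09, adjusted p 0.145 and 0.174, limma). They were as large as the called slope of Aox4 (0.23) but had a larger standard error. Apof, apolipoprotein F, had 2.23, 2.46 and 3.65 in Cpd2 mice, against 4.54, 6.21 and 6.67 in vehicle mice, and changed by −3.27 (SE 0.25) and by −3.04 (SE 0.31) at equal score. Tmprss11e, a serine protease of epithelia, changed by −2.46 (SE 0.32), and Mpo, the peroxidase of neutrophil granules, by −2.77 (SE 0.29). At equal score Tmprss11e had −1.78 and Mpo −2.54. The slope of Tmprss11e was 0.22 (SE 0.06) and narrowly missed a call (adjusted p = 0.0563, limma).

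Enzymes of xenobiotic and steroid metabolism stood beside them. Cyp1a1, the cytochrome P450 induced through the aryl hydrocarbon receptor, had 4.50, 5.04 and 5.59 in Cpd2 mice, against 6.49, 7.59 and 8.05 in vehicle mice (lowest, median and highest log2 intensity), and changed by −2.42 (SE 0.18, adjusted p = 4.09e-09) and by −2.31 (SE 0.23) at equal score. Cyp2j12, a cytochrome P450 of the epoxygenase family, changed by −2.31 (SE 0.23), and Hsd17b2, which inactivates oestradiol and testosterone, by −2.08 (SE 0.19). Gabra4, a subunit of the GABA type A receptor, and Scgb2b24, a secretoglobin, changed by −2.68 (SE 0.20) and −2.59 (SE 0.33). At equal score Hsd17b2, Gabra4 and Scgb2b24 had −1.80, −2.27 and −2.27. The slope of Gabra4 was 0.13 (SE 0.04, adjusted p = 0.0779, limma). Of 38 tested genes of cytochrome P450, retinoid and steroid enzymes, 12 were lower and 2 higher, and at equal score 8 were lower and 1 higher. Leaving out vehicle mouse 4 gave 17 lower and 2 higher, and 11 lower and 1 higher at equal score.

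The largest increase was that of Ccl1, a chemokine that attracts T cells and other leukocytes through Ccr8. Its log2 intensity was 8.65, 9.42 and 10.27 at the lowest, median and highest Cpd2 mouse, against 4.87, 5.24 and 5.57 in vehicle mice, and every Cpd2 mouse was above every vehicle mouse by over 3 log2 units. The change was 4.31 (SE 0.20, adjusted p = 1.23e-13), a 19.9-fold increase, 4.04 (SE 0.23) at equal score and 4.07 (SE 0.22) without the 4 Cpd2 mice low in muscle. Among the other named genes of this class whose groups did not overlap, Ccl22, a T cell attractant made by dendritic cells, rose by 1.81 (SE 0.26) and Tnfrsf9, a costimulatory receptor of T cells, by 1.38 (SE 0.20).

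Ccl2, which attracts monocytes, rose by 1.36 (SE 0.14), Mrgprb3, a receptor of the Mas-related family, by 1.37 (SE 0.20), Ifitm6, an interferon-induced membrane protein, by 1.34 (SE 0.23) and Ctla4, an inhibitory receptor of T cells, by 1.21 (SE 0.16). Upk3b, a uroplakin, Ly6m, a member of the Ly6 family, Guca2a, the peptide guanylin, Skint11, of a family of epidermal proteins that select gamma-delta T cells, and Slc9a3, a sodium-proton exchanger, rose by 1.34, 1.32, 1.25, 1.2 and 1.19. For each of these genes all 8 Cpd2 mice were above all 8 vehicle mice, which the rule that names them requires. Slc9a3 had a second tested probeset that did not pass (0.24, adjusted p = 0.236). At equal score the 12 increases lay between 1.00 and 4.04.

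Among lists of lipid genes, sebaceous gland genes fell both with and without the score. Of 20 tested, 10 were lower, none was higher and 10 did not pass, with a median log2 change of −0.63, and 7 were lower at equal score. With vehicle mouse 4 left out, 12 were lower and 1 was higher, and 10 were lower at equal score. The list mean lay between 7.66 and 8.72 in Cpd2 mice and between 8.54 and 9.46 in vehicle mice, the lowest of them mouse 4, and without that mouse the vehicle mice began at 8.97, so that the groups no longer overlapped. Within the Cpd2 mice it was 7.66 to 8.07 in the 4 low in muscle and 8.22 to 8.72 in the other 4. Slopes were called for 6 of the 20 genes, all positive. Krt79, a keratin of the sebaceous duct, had 0.22 and did not pass, and Plin2, a lipid droplet coat protein, had −0.07. Scd1, a desaturase, had −0.06 in the brighter of its probesets and −0.69 (adjusted p = 0.000693) in the other.

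Fatty acid synthesis, elongation and desaturation genes fell in 15 of 26 cases and rose in none, and 7 were lower at equal score. Slopes were called for 6 of the 26, all positive. The list mean was 8.31 to 8.63 in the 4 Cpd2 mice low in muscle and 8.54 to 8.93 in the other 4. Leaving out vehicle mouse 4 gave 17 lower and 1 higher, and 9 lower at equal score. Elovl3, which lengthens fatty acids, changed by −1.18 (SE 0.15) and by −1.06 (SE 0.18) at equal score, Acss2, which makes acetyl-CoA from acetate, by −1.14 (SE 0.16) and −0.96 (SE 0.19), and Acacb, an acetyl-CoA carboxylase, by −1.10 (SE 0.16) and −1.01 (SE 0.19). Elovl5, an elongase of polyunsaturated fatty acids, changed by −0.79 (SE 0.09) and −0.59 (SE 0.09), and its slope of 0.07 was called, which was lost without Cpd2 mouse 1, 3 or 8 (0.05 to 0.07). Fasn, the fatty acid synthase, changed by −0.82 without a call at equal score.

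Of 19 genes of cholesterol synthesis and uptake, 11 were lower, and 6 at equal score, while Srebf2, the transcription factor of this pathway, was the 1 gene that rose (0.22), in 1 of its 3 tested probesets. When vehicle mouse 4 was left out, 13 were lower and 1 higher, and 8 lower and 1 higher at equal score. Hsd17b7, Lss and Mvd, enzymes from mevalonate to lanosterol and beyond, changed by −1.01 (SE 0.12), −0.82 (SE 0.14) and −0.77 (SE 0.11), and by −0.74, −0.65 and −0.58 at equal score. The call of Lss at equal score was lost without Cpd2 mouse 5, 6 or 8 or vehicle mouse 2 or 5 (−0.67 to −0.57). The second probeset of Lss did not pass at equal score (−0.41) and had a called slope (0.12). The slope of Hsd17b7 was called at 0.09 in 1 of its 2 probesets, and was lost without Cpd2 mouse 1, 2, 3, 4 or 8 or vehicle mouse 7 (0.08 to 0.10).

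Of 27 peroxisomal lipid genes 10 were lower (15 without vehicle mouse 4) and none was higher, and 5 were lower at equal score (8 without vehicle mouse 4). Acox2, an oxidase of branched-chain fatty acids, changed by −1.78 (SE 0.24) and by −1.34 (SE 0.26) at equal score, Acox3, a related oxidase, by −1.23 (SE 0.13) and −1.07 (SE 0.15), and Crat, carnitine acetyltransferase, by −1.13 (SE 0.15) and −0.84 (SE 0.16). The other 2 tested probesets of Acox3 did not pass (−0.30 and −0.07). Sphingolipid genes moved both ways, with 6 of 27 lower and 7 higher. Sgpp2, a sphingosine phosphate phosphatase, and Cers5 and Cers4, ceramide synthases, changed by −1.49 (SE 0.26), −1.25 (SE 0.13) and −0.84 (SE 0.12), of which Cers4 had a called slope in 1 of its 3 probesets, and Cers3, the ceramide synthase of the epidermis, by 0.77. Sgpp2 at equal score was −1.0 (SE 0.28, adjusted p = 0.0449), lost without any of Cpd2 mice 2 to 8 or without vehicle mouse 3, 5, 6, 7 or 8 (−1.02 to −0.89). The slope of Cers5 was called at 0.10, and was lost without Cpd2 mouse 1, 2, 3, 4, 7 or 8 or vehicle mouse 2, 6, 7 or 8 (0.08 to 0.10).

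Other lists of energy metabolism had no call at equal score, and 1 without vehicle mouse 4, in mitochondrial fatty acid oxidation. Mitochondrial fatty acid oxidation genes were lower in 9 of 21 cases and in 0 at equal score. The gene with the largest change was Cpt1b, the carnitine palmitoyltransferase of muscle, at −2.14 (SE 0.57), with a slope of 0.64 (SE 0.05) and −0.16 (SE 0.27, adjusted p = 0.851) at equal score. Respiratory chain and citrate cycle genes were lower in 3 of 31 cases, or 7 without vehicle mouse 4, and in 0 at equal score. The median changes of both lists were −0.24 and −0.13.

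Dgat1, the target of the compound, had log2 intensities of 9.74, 10.27 and 10.66 at the lowest, median and highest Cpd2 mouse, against 9.85, 10.91 and 11.10 in vehicle mice. The groups overlapped, and vehicle mouse 4 held the lowest vehicle value. The change of −0.60 (SE 0.15, adjusted p = 0.00636) was −0.32 (SE 0.16, adjusted p = 0.341) at equal score, with a slope of 0.09 (SE 0.03, adjusted p = 0.11), so Dgat1 belongs to the remainder. Without the 4 Cpd2 mice low in muscle it had an adjusted p of 0.275, and without vehicle mouse 4 as well 0.00307. Dgat2 had −0.09 (SE 0.16, adjusted p = 0.79). Of 25 genes of triacylglycerol synthesis and lipid droplets 6 were lower, and 1 at equal score, Pnpla5, and without vehicle mouse 4 11 were lower and 5 at equal score. Plin5, a droplet coat protein of oxidative tissue, had −1.22 (SE 0.29), with a slope of 0.23 (SE 0.06) that was lost without Cpd2 mouse 1, 7 or 8 (0.21 to 0.23). Cidea, which enlarges lipid droplets, had −0.63 (SE 0.15), and at equal score Plin5 had −0.53 and Cidea −0.36, without a call (adjusted p 0.385 and 0.282).

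Genes of the outer epidermis rose, with and without the score in the fit. Of 30 tested genes of differentiated keratinocytes and the cornified envelope, 21 were higher and none lower, with a median log2 change of 0.51, and 15 were higher at equal score, where the median was 0.39. No slope was called, and 4 of the 30 slope estimates were above 0. The list mean lay between 10.02 and 10.28 in Cpd2 mice and between 9.34 and 9.99 in vehicle mice, without overlap. Aloxe3 and Alox12b, lipoxygenases that build the lipid envelope of the cornified layer, changed by 1.09 (SE 0.12) and 1.17 (SE 0.18), and by 1.07 and 0.93 at equal score. Lce1c and Lce1f, late cornified envelope proteins, changed by 1.08 (SE 0.14) and 1.04 (SE 0.20). Lce1f at equal score had 0.88 (adjusted p = 0.0489), lost without any of Cpd2 mice 1 to 7 or vehicle mouse 1, 3, 5 or 6 (0.74 to 0.99).

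Basal keratinocyte genes were higher in 8 of 10 cases and in 3 at equal score, and Col17a1, the collagen of hemidesmosomes, changed by 0.75 (SE 0.12), and by 0.67 at equal score, a call lost without Cpd2 mouse 5 (0.66). Of 29 genes of activated keratinocytes and antimicrobial peptides 11 were higher, and 6 at equal score, while S100a8, a subunit of calprotectin, was the 1 gene that fell (−0.72). Defb1, an antimicrobial beta-defensin, had 11.35, 11.63 and 11.91 in Cpd2 mice, against 10.34, 10.94 and 11.08 in vehicle mice, and changed by 0.73 (SE 0.09), and by 0.71 at equal score. Il1f9, an interleukin 36 cytokine of keratinocytes, changed by 1.29 (SE 0.22), and by 1.15 at equal score, a call lost without Cpd2 mouse 5 (1.03). Chil1, a chitinase-like protein, and Pglyrp3, a peptidoglycan recognition protein, rose by 1.13 (SE 0.25) and 1.10 (SE 0.23) and had 0.81 and 0.63 at equal score, where they did not pass (adjusted p 0.148 and 0.187).

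Chemokines were higher in all 8 Cpd2 mice and higher still in the 4 low in muscle. The list mean of 24 chemokines was 8.32 to 8.49 in Cpd2 mice 2, 3, 4 and 7, 7.75 to 7.98 in the other 4 Cpd2 mice and 7.27 to 7.53 in vehicle mice, without overlap between the 3 ranges. Of the 24, 12 were higher and none lower, with a median log2 change of 0.53, and 5 were higher at equal score and 5 without the 4 mice low in muscle. These include Cxcl16, a ligand of Cxcr6 on T cells, which changed by 1.10 (SE 0.14), and by 0.92 (SE 0.17) at equal score, beside Ccl1, Ccl22, Ccl2 and Ccl19. Ccl17, which attracts T cells through Ccr4 as Ccl22 does, changed by 1.2 (SE 0.33, adjusted p = 0.0158) and had 0.58 (adjusted p = 0.484) at equal score. Ccl7 and Ccl8, monocyte attractants, had the 2 called slopes of the list, both negative.

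**Figure D4:**
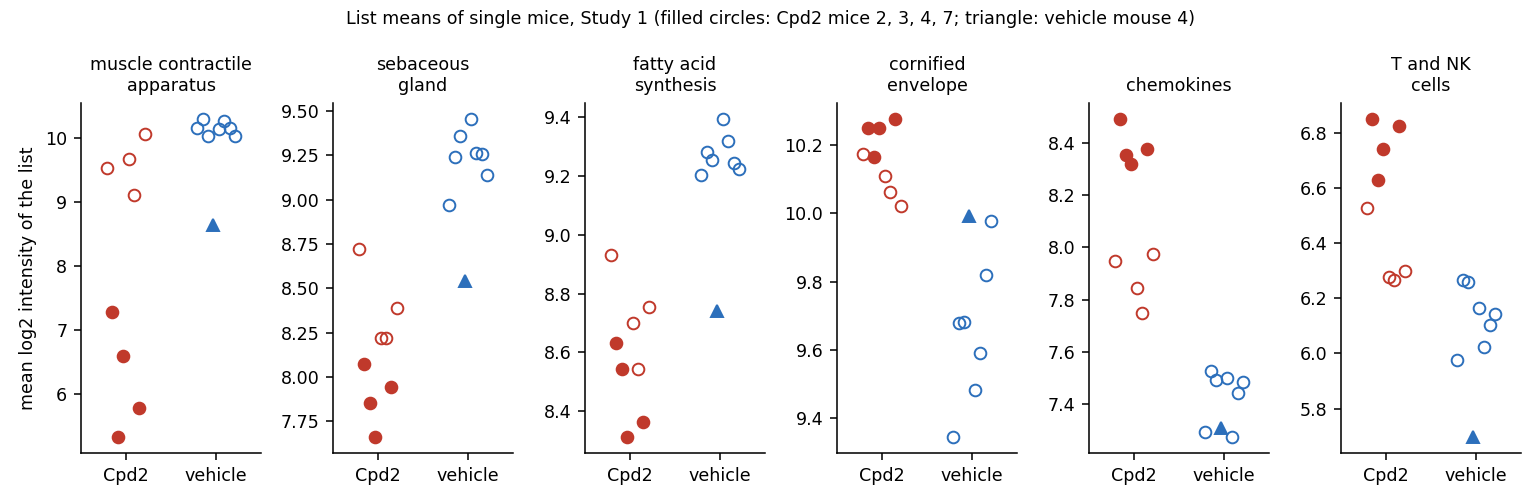
Mean log2 intensity of 6 gene lists (vertical axes) in each Cpd2 and vehicle mouse of Study 1, with filled circles for Cpd2 mice 2, 3, 4 and 7, which are low in muscle, and a triangle for vehicle mouse 4. Chemokine means run from 8.32 to 8.49 in the filled Cpd2 mice, from 7.75 to 7.98 in the open ones and from 7.27 to 7.53 in vehicle mice, and cornified envelope means do not overlap between the groups.

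T and NK cell genes showed the same order of mice. Their mean was 6.63 to 6.85 in the 4 Cpd2 mice low in muscle and 6.27 to 6.53 in the other 4 Cpd2 mice, against 5.70 to 6.27 in vehicle mice, so that the groups just touched. Of 19 genes 11 were higher, 5 of them at equal score and 4 without the 4 mice. Cd3d, a chain of the T cell receptor complex, and Lat, the adaptor below it, changed by 0.74 (SE 0.12) and 0.77 (SE 0.12), and by 0.62 and 0.64 at equal score, the first a call lost without Cpd2 mouse 1 (0.56), while Cd5 changed by 0.77 (SE 0.18) and had 0.46 (adjusted p = 0.272) at equal score.

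Dendritic and Langerhans cell genes were higher in 8 of 18 cases, and in 1 at equal score. The list mean was 9.29 to 9.45 in the 4 Cpd2 mice low in muscle and 8.93 to 9.06 in the other 4, against 8.24 to 8.97 in vehicle mice. Ccr7, the homing receptor of migrating dendritic cells, changed by 1.43 (SE 0.28) and had 0.91 (adjusted p = 0.109) at equal score. Cd83, a marker of mature dendritic cells, changed by 0.70 (SE 0.15), with 0.50 (adjusted p = 0.145) at equal score, and Cd86, a costimulatory ligand, by 0.58 (SE 0.12), with a call at equal score (0.58) that was lost without Cpd2 mouse 5 or 8 (0.49 to 0.60) and was not made by its second probeset (0.47).

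Cytokines and their receptors kept most of their calls at equal score. Of 39, 14 were higher, and 12 at equal score and also 12 without the 4 mice low in muscle, while Il13ra2, a decoy receptor of interleukin 13, was the 1 gene lower (−0.56). Il23a, a subunit of interleukin 23, had 3.42, 4.33 and 5.15 in Cpd2 mice, against 2.51, 2.95 and 3.55 in vehicle mice, and changed by 1.40 (SE 0.23), and by 1.25 at equal score, a call lost without Cpd2 mouse 1 or 5 (1.14 to 1.22). Tnfrsf4, the costimulatory receptor OX40, and Il18r1, a chain of the interleukin 18 receptor, changed by 1.10 (SE 0.14) and 1.04 (SE 0.17), and by 0.87 and 1.06 at equal score, while a second probeset of Il18r1 did not pass (0.50, adjusted p = 0.0806). Interferon response genes were higher in 7 of 20 cases and in 1 at equal score, Tap1, the peptide transporter of antigen presentation, at 0.59 (SE 0.10) and 0.54. Psmb8, a subunit of the immunoproteasome, changed by 0.61 (SE 0.13), with 0.45 (adjusted p = 0.102) at equal score.

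Macrophage and monocyte genes were higher in 2 of 17 cases, Ms4a7 at 0.77 (SE 0.18) and Arg1, an arginase of alternatively activated macrophages, at 0.53 (SE 0.11), of which Arg1 also passed at equal score (0.63). Endothelial genes were lower in 4 of 20 cases, among them Flt1, a receptor of vascular endothelial growth factor, at −0.63 (SE 0.17), which had −0.33 (adjusted p = 0.415) at equal score. The other 2 tested probesets of Flt1 did not pass. Without vehicle mouse 4, 14 endothelial genes were lower, and 8 at equal score. Lower calls over all tested probesets also rose then, from 1728 to 2553, and at equal score from 332 to 768. Without the 4 Cpd2 mice low in muscle 0 endothelial genes were called, and without these and vehicle mouse 4 9 were lower. Without vehicle mouse 4 the counts of higher genes were 22 of the cornified envelope, 13 of activated keratinocytes, 13 chemokines, 13 cytokines and receptors, 11 of T and NK cells, 8 of dendritic cells, 2 of macrophages and 4 of the interferon response, and at equal score 17, 7, 4, 11, 4, 1, 1 and 1 in the same order. Called negative slopes numbered 6 among chemokines and 5 among dendritic cell genes without that mouse, against 2 and 1 with it. Of 26 genes of fibroblasts and extracellular matrix Timp1 was the 1 called. Of 13 adipocyte, 19 hair keratin, 10 melanocyte and 23 cell division genes limma called 0, with median changes of −0.09, −0.18, −0.31 and 0.04, while 3 adipocyte genes were lower without vehicle mouse 4. Hair keratin means spanned 3.86 to 8.38 in Cpd2 mice and 3.64 to 11.43 in vehicle mice, and the values above 8.38 were those of vehicle mouse 4 alone. In the 4 Cpd2 mice low in muscle the hair keratin mean was 4.03 to 8.38, against 3.86 to 4.6 in the other 4 Cpd2 mice. At equal score the median change of this list was −1.78 and its median slope −0.50, with 0 of 19 slope estimates above 0 and 0 called, and without vehicle mouse 4 these medians were −0.38 and −0.33, and the median change without the score 0.63.

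The called genes were not spread alike over the mice. Without the 4 Cpd2 mice low in muscle, 966 probesets passed (3.36%), 609 higher (2.12%) and 357 lower (1.24%), and the score difference was −0.42. Of the 880 that do not follow the score, 770 passed without these mice, all in the same direction. Of the 50 that follow the score and pass with it 47 passed, of the 2389 in the remainder 88, and of the 450 that follow it and do not pass with it 5. The 2 selections share the 12 remaining mice and the Cpd1 mice and are no independent check of each other. Without vehicle mouse 4 as well 2036 passed, 958 higher and 1078 lower.

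Study 2 holds other mice, whose muscle scores did not differ between Cpd2 and vehicle by more than their spread. Its groups were not alike in hair genes. The median log2 change there was −3.62 for hair shaft and root sheath keratins, with 1 gene called lower. It was −0.78 for melanocyte genes and −0.52 for hair follicle regulators, with 0 called. There 37 probesets passed for Cpd2 minus vehicle (0.129%), with 4 mice per group. Among the 880 that do not follow the score, 730 had the same sign in Study 2 (83.0%), and 41 of the 50 that follow it and pass with it did so (82.0%). Among the 450 that follow it and do not pass with it 140 did (31.1%), and in the remainder 1479 of 2389 (61.9%). Over all tested probesets the share was 53.2%. Of the 37 probesets, 18 were among the 880, 11 among the 50, 4 in the remainder, 0 among the 450 and 4 among probesets not called in Study 1.

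Serpinb6d, Cyp2b23 and Ccl1 changed in Study 2 by −4.06 (SE 0.36), −3.82 (SE 0.19) and 3.35 (SE 0.20), with adjusted p-values of 0.000113, 1.09e-07 and 6.77e-07. Apof, Serpina3b, Scd3, Aox4, Cyp1a1 and Pnpla5 were lower there too, with changes of −2.37, −2.08, −1.81, −2.02, −1.34 and −1.35, and Defb1, Cxcl16 and Tnfrsf4 were higher, by 0.80, 0.75 and 0.67. Of the 12 named increases that do not follow the score 1 passed in Study 2, Ccl1, and of the 12 decreases 4, Serpinb6d, Serpina3b, Cyp1a1 and Apof. All 24 had the sign of Study 1, with Study 2 changes down to 0.31 among the increases (Slc9a3) and to −0.76 among the decreases (Hsd17b2). The muscle genes Myh4, Mstn, Actn3 and Xirp2 had −0.10, 0.17, −0.03 and 0.32 in Study 2, and none passed. Of the cornified envelope genes, T and NK cell genes and chemokines, limma called 0 of 30, 0 of 19 and 2 of 24 in Study 2, with medians of 0.14, 0.30 and 0.02. With 4 mice per group a missed call does not show that a gene was unchanged. A test of the difference between the studies passed for 209 probesets (0.726%), and for 1 once the muscle score was in that fit. Calls there can also be lost through lost precision, and the cause was not tested. Leaving out 1 mouse moved the 209 to between 26, without vehicle mouse 1 of Study 2, and 1521, without vehicle mouse 4 of Study 1.

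**Figure D5:**
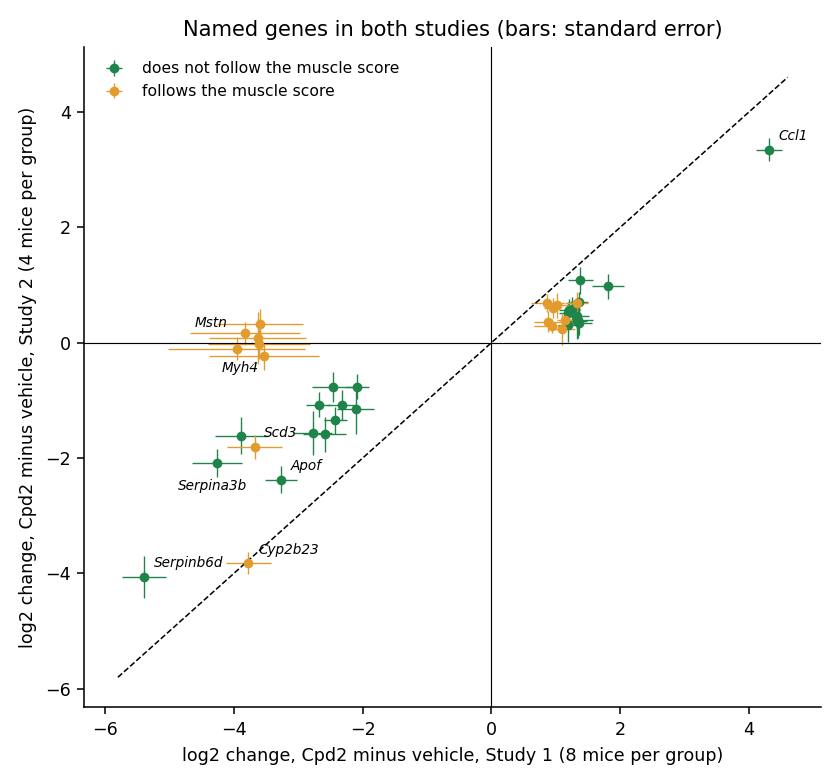
Log2 change of Cpd2 minus vehicle in Study 1 (horizontal axis, 8 mice per group) and Study 2 (vertical axis, 4 mice per group) for the genes named by size of change, with standard errors as bars and 2 colours for genes that do and do not follow the muscle score of Study 1. The dashed line marks equal changes. Serpinb6d, Cyp2b23, Apof, Scd3 and Ccl1 lie away from zero in both studies, and Myh4, Mstn and other muscle genes lie near zero in Study 2.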

How the data were processed

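RNA of dorsal skin was hybridised to custom Affymetrix arrays, 1 per mouse. The deposited values are linear intensity values per probeset, which the authors made with RMA, whose version is not given in the sources used here. The lists and members were chosen with earlier results of these data known. Intensities were taken to log2, and 28789 of 38385 probesets at or above the 25th percentile of the mean over 48 arrays were tested. Of all probesets, 24478 had 1 gene name, 65 several and 13842 none. The authors' absent call was not repeated.

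The 24 arrays of Study 1 were fitted in limma 3.58.1 (R 4.3.3) with 1 mean per group, a trended variance and p-values adjusted by Benjamini-Hochberg across every tested probeset. A second fit added the muscle score, whose slope rests on differences within groups. A called probeset followed the score where its slope had an adjusted p under 0.05. Study 2 was fitted on its own, and the difference between studies over all 48 arrays. The steps were tested on simulated data. Figures used matplotlib 3.10.9.

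Genes were named by rule: the score genes, Dgat1, Dgat2 and genes the study's text names; the 12 largest increases and decreases that do not follow the score and do not overlap between groups; the 8 largest in each direction that follow it; and, from a list, its called genes up to 4. A few others were chosen after their values were seen. Of several probesets the one with the highest mean was used. Promoters are from RefSeq, GRCm38.p6. Alternatives were other filters, normalizations, array weights, a replicate block, the paper's test, other mice for the slope and mice left out.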

Additional observations from a re-analysis of the deposited data

Results flagged for a closer look

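Of 186 sets of 8 values, 1 for each named gene or the muscle score in each group, 37 had a highest or lowest mouse far from the other 7, where chance gives about 1 in 20. Vehicle mouse 4 was that mouse in 27, always as the lowest of its group (log2 intensity). Among muscle genes and the score these were Ckm at 8.94, Acta1 at 12.11, Myh4 at 11.46, Actc1 at 7.61, Actn3 at 9.55, Mybpc2 at 9.60, Ampd1 at 7.44, Pgam2 at 10.24, Casq1 at 7.68, Cacna1s at 6.94, Myf6 at 5.05, Cpt1b at 5.98 and the muscle score at 10.84. The others were Dgat1 at 9.85, Dgat2 at 8.97, Elovl5 at 12.39, Cyp2j12 at 6.83, Pnpla5 at 9.18, Plin5 at 4.43, Acss2 at 8.70, Hsd17b7 at 10.63, Lss at 9.73, Mvd at 9.22, Acox3 at 9.41, Crat at 6.29, Cers4 at 11.13 and Flt1 at 7.35.

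Cpd2 mouse 7 was highest of its group for Ifitm6 at 10.89 and Ly6m at 6.94, and lowest for Flt1 at 7.02, and Cpd2 mouse 1 was highest for Acox3 at 9.59. Vehicle mouse 1 was lowest for Defb1 at 10.34, Hsd17b2 at 8.46, Ctla4 at 4.50, Ch25h at 4.42 and Arg1 at 8.21, and vehicle mouse 8 was highest for Il4i1 at 6.32.

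For 4 named genes the Cpd2 change differed between the studies in limma's test of the difference, Study 1 minus Study 2. The difference was −3.91 for Xirp2 (SE 0.91, adjusted p = 0.0321), −2.18 for Serpina3b (SE 0.55, adjusted p = 0.0447), −1.61 for Gabra4 (SE 0.31, adjusted p = 0.0136) and −1.32 for Hsd17b2 (SE 0.32, adjusted p = 0.0403). In Study 2 Serpina3b passed (−2.08, adjusted p = 0.0014), and Gabra4 had −1.08 (adjusted p = 0.0928) and Hsd17b2 −0.76 (adjusted p = 0.375). The muscle score averaged 9.34 in the Cpd2 mice of Study 1 and 12.02 in those of Study 2, and with the score in that fit the difference passed for 1 probeset of all tested. The score and the Cpd2 group of Study 1 overlap in part, so that fit can also lose calls through lost precision. The cause was not tested.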

How the results depend on the processing

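With array weights, 5998 probesets passed without the score, 2178 with it and 1568 for the slope, 893 followed the score and 1721 did not follow it and passed with it. Without the 3 Cpd2 mice lowest in muscle, 1339 passed and 77 followed, and without the 4, chosen after seeing the data, 966 passed, 2646 slopes passed, 101 followed and the score difference was −0.42. Without vehicle mouse 4 too, the counts were 2036 without and 308 with the score, 270 slopes, 152 that followed and 287 that did not. Slopes from Cpd1 and vehicle mice alone passed for 3063 probesets, with 794 that followed, and without vehicle mouse 4 for 65, with 60. Same-numbered Cpd2 and vehicle mice correlated between −0.18 and 0.20, so no pairing by number was seen, though this is no test for a batch. With a replicate block 480 passed with the score, 432 slopes passed, 306 followed and 441 did not. Leaving out 1 mouse gave 2872 (Cpd2 mouse 7) to 5103 (vehicle mouse 4) calls without the score, 448 (Cpd2 mouse 5) to 1599 (vehicle mouse 4) with it, 510 to 1024 slopes, 356 to 644 that followed, 410 to 1303 that did not, and a score difference of −3.52 to −2.47. The difference between studies passed for 327 probesets with equal array medians, 1 with the muscle score, and 26 (without Study 2 vehicle mouse 1) to 1521 (without Study 1 vehicle mouse 4) with 1 mouse left out.

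Slopes of Scd3, Aox4, Cyp2b23, Cers5, Ch25h, Tmem125, Tprg and Pglyrp2 turned sign to −0.48, −0.13, −0.19, −0.11, 0.26, 0.052, 0.069 and 0.63 from Cpd1 and vehicle mice without vehicle mouse 4. The slope of Ch25h was 0.054 with that mouse, 0.014 without the 4 Cpd2 mice and 0.0042 without those and vehicle mouse 4, where Tprg had 0.11 and Pglyrp2 0.17. Dgat2 had a change of 0.00049 without the 3 Cpd2 mice. The causes were not tested. The slopes draw 95.1% of the score's spread within groups from Cpd2 mice, and 4.26% from vehicle mice.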
